A study of Mus musculus with 9 samples.

Results

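The mitochondrial ribosomal protein genes are the nuclear genes, named Mrpl for the large subunit and Mrps for the small subunit, whose proteins form the ribosome inside mitochondria. They were taken as every gene of the count table whose symbol is Mrpl or Mrps followed by a number and at most 1 letter, which gave 76 of 33924 genes. Of these, 75 had enough reads to be tested. Mrpl53, a large-subunit gene, was not tested: it had 1 read in 1 Smarcb1-labelled library and 0 in the other 8. The tested gene Mrps36 carries the symbol but encodes a protein now placed in the oxoglutarate dehydrogenase complex, an enzyme of the citric acid cycle, and it is kept in the counts.

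The mitochondrial ribosome translates the few messenger RNAs of the mitochondrial genome, which encode core subunits of the respiratory chain and ATP synthase. Its RNAs come from the mitochondrial genome, while its proteins are made in the cytoplasm from nuclear genes and imported, so both genomes must supply parts. Some of the proteins descend from bacterial ribosomal proteins and others are found only in mitochondria. In the thyroid, follicular cells make thyroid hormone on thyroglobulin, and this synthesis draws on energy and on hydrogen peroxide.

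Gene expression was measured by RNA sequencing of whole, flash-frozen mouse thyroids in 3 groups of 3 libraries: wild type, a group labelled Arid2 KO and a group labelled Smarcb1 KO. Both genes encode subunits of SWI/SNF, a complex that moves nucleosomes, and the series title ties the groups to the study of SWI/SNF mutations in thyroid tumours. The labels of these libraries give no age, sex, strain, Cre driver or other allele. They do not say that the libraries of a group came from separate animals, so p-values measure the spread between libraries.

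The libraries held 33666251 to 89553766 counted reads, with the 3 Arid2-labelled libraries deepest. The RNA of neither targeted gene verified the labels. Arid2 differed between the Arid2-labelled and wild-type libraries by 0.13 ± 0.16 on the log2 scale (SE, adjusted p = 0.745, edgeR's quasi-likelihood test), and Smarcb1 between Smarcb1-labelled and wild-type libraries by -0.36 ± 0.11 (adjusted p = 0.0651). The summed level of 12 thyroid follicular markers was 229340 to 325551 CPM (read counts scaled to a common library total) in every library, and all 9 held follicular RNA. Markers of thymocytes summed to 799.6 CPM in Arid2-labelled replicate 1, to 111 in Smarcb1-labelled replicate 2 and to at most 0.353 elsewhere. Xist was at 808.9 CPM in Smarcb1-labelled replicate 3 and at most 2.60 in the other 8 libraries. In bulk tissue, fewer cells of a type and less RNA per cell cannot be told apart.

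Levels of the members differed several-fold between genes. In wild type the mean level ran from 5.27 CPM for Mrpl23 to 85.5 CPM for Mrps6, with a median of 26.4 CPM over the 75 tested members. The bacterial-type small-subunit genes had a median of 27.7 CPM (16 genes), the mitochondria-specific small-subunit genes 17.1 CPM (10 genes), the bacterial-type large-subunit genes 27.8 CPM (29 genes) and the mitochondria-specific large-subunit genes 29.9 CPM (19 genes). Per kilobase of annotated transcript, Mrps6 (101 ± 13.3 CPM per kilobase, SD, n = 3), Mrpl42 (87.6 ± 15.9) and Mrpl33 (81.2 ± 10.01) stood highest. Mrps25 (3.29 ± 0.549), Mrpl19 (3.31 ± 0.201) and Mrps35 (4.08 ± 0.953) stood lowest. These lengths come from 1 annotated transcript a gene, and the 3 lowest have long annotated transcripts of 6073, 5000 and 4162 bases. Neighbours in this order differed by less than the larger of their SDs, among the highest 3 and on to Mrpl52 (75.6 ± 12.1), and among the lowest 3 and on to Mrpl47 (4.58 ± 0.333).

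As a share of all reads, the members took 0.189%, 0.216% and 0.231% of the 3 wild-type libraries, 0.198%, 0.190% and 0.231% of the Arid2-labelled libraries and 0.194%, 0.190% and 0.164% of the Smarcb1-labelled libraries. The means were 0.212 ± 0.0213% in wild type, 0.206 ± 0.0220% in Arid2-labelled and 0.183 ± 0.0161% in Smarcb1-labelled libraries (SD, n = 3). The groups overlapped. Among the reads outside thyroglobulin, the most abundant thyroid transcript, the shares were 0.273%, 0.295% and 0.306% in wild type, 0.267%, 0.272% and 0.307% in Arid2-labelled and 0.257%, 0.250% and 0.231% in Smarcb1-labelled libraries, with means of 0.292%, 0.282% and 0.246%. On that scale the Smarcb1-labelled libraries lay below the other 6.

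The median of the members was highest in the libraries with most brown fat marker RNA, which also held the least parathyroid marker RNA. Each gene was set against its mean over the 9 libraries, on the log2 scale, and the median over the members was taken. That median was -0.05, 0.05 and 0.21 in wild type, -0.02, -0.00 and 0.20 in Arid2-labelled and -0.03, -0.14 and -0.21 in Smarcb1-labelled libraries. Wild-type replicate 3 and Arid2-labelled replicate 3 were highest. The same libraries were highest for oxidative phosphorylation subunits, whose proteins the mitochondrial ribosome's products join: their medians were -0.06, -0.06 and 0.37 in wild type, 0.03, 0.07 and 0.37 in Arid2-labelled and -0.16, -0.17 and -0.30 in Smarcb1-labelled libraries. The 4 brown fat markers (Ucp1, Cidea, Elovl3 and Cox7a1) summed to 126, 129 and 894 CPM in wild type, 330, 421 and 708 CPM in Arid2-labelled and 51.4, 239 and 190 CPM in Smarcb1-labelled libraries. The 3 parathyroid markers summed to 8.16 CPM in wild-type replicate 3 and 10.6 CPM in Arid2-labelled replicate 3, and to 1236 to 16992 CPM elsewhere. Brown fat is a mitochondria-rich tissue beside the neck organs. Neither its part nor that of parathyroid RNA in these medians was tested.

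**Figure D1:**
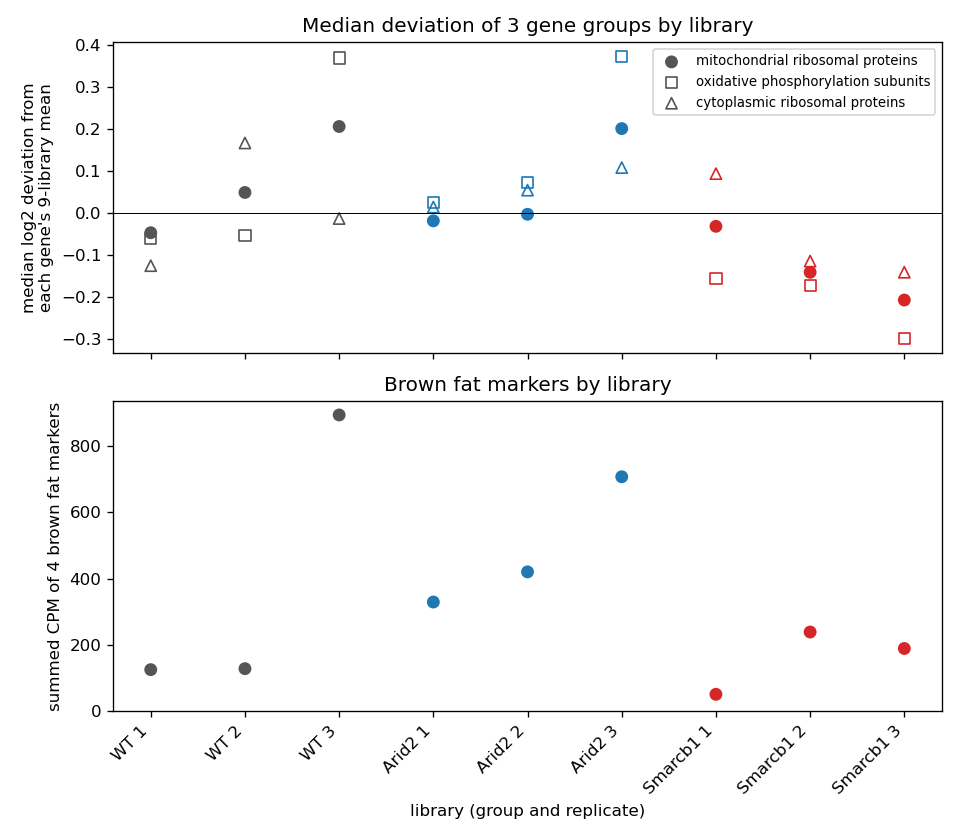
Upper panel: median log2 deviation of mitochondrial ribosomal protein, oxidative phosphorylation and cytoplasmic ribosomal protein genes from each gene's mean over 9 libraries, by library. Lower panel: summed CPM of 4 brown fat markers in the same libraries. Wild-type replicate 3 (0.21) and Arid2-labelled replicate 3 (0.20) are highest for the mitochondrial ribosomal proteins and hold the most brown fat marker RNA (894 and 708 CPM). Both also hold the least parathyroid marker RNA (8.16 and 10.6 CPM, not drawn).

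The level of a member varied little between libraries of the same group. The median within-group SD was 0.167 on the log2 CPM scale over the 75 members. It was 0.186 over the 5326 genes of the members' expression range and 0.240 over all 17079 tested genes. Among the libraries, 21 members were highest in wild-type replicate 3, 24 in Arid2-labelled replicate 3 and 23 in Smarcb1-labelled replicate 1. Lowest values were in Smarcb1-labelled replicate 3 for 26 members and in Smarcb1-labelled replicate 1 for 17.

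In the Arid2-labelled thyroids no mitochondrial ribosomal protein gene passed the test. A gene was called at an adjusted p under 0.05 with edgeR's quasi-likelihood test, the p-values adjusted over all 17079 tested genes. Of 75 members, 0 were called, against 0.556% of all tested genes (0.234% higher and 0.322% lower), and 0 also had an unadjusted p under 0.05, against 14.9% of all tested genes. DESeq2 likewise called 0. The median fold change of members was -0.05 on the log2 scale, 26 above and 49 below 0, and their range was -0.30 to 0.41. The median over all tested genes was 0.02, with 47.5% below 0.

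The lowest fold changes in the Arid2-labelled libraries were those of Mrps22 (-0.30 ± 0.18, SE, adjusted p = 0.481), Mrps14 (-0.29 ± 0.14, adjusted p = 0.381), Mrps24 (-0.27 ± 0.20, adjusted p = 0.576) and Mrpl41 (-0.27 ± 0.15, adjusted p = 0.448). The highest were those of Mrpl34 (0.41 ± 0.18, adjusted p = 0.340), Mrps12 (0.40 ± 0.18, adjusted p = 0.348), Mrps36 (0.22 ± 0.20, adjusted p = 0.652) and Mrps9 (0.21 ± 0.13, adjusted p = 0.476). For Mrps14, a small-subunit protein with a bacterial relative, the libraries read 35.7, 37.8 and 41.4 CPM in wild type and 30.3, 30.9 and 32.99 in Arid2-labelled libraries. Those groups did not overlap, as was so for 1 member higher and 4 lower, against 25.5% of all tested genes in either direction (12.9% higher and 12.6% lower). The standard errors here, about 0.14 log2 units at the median, limit what could be seen.

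**Figure D2:**
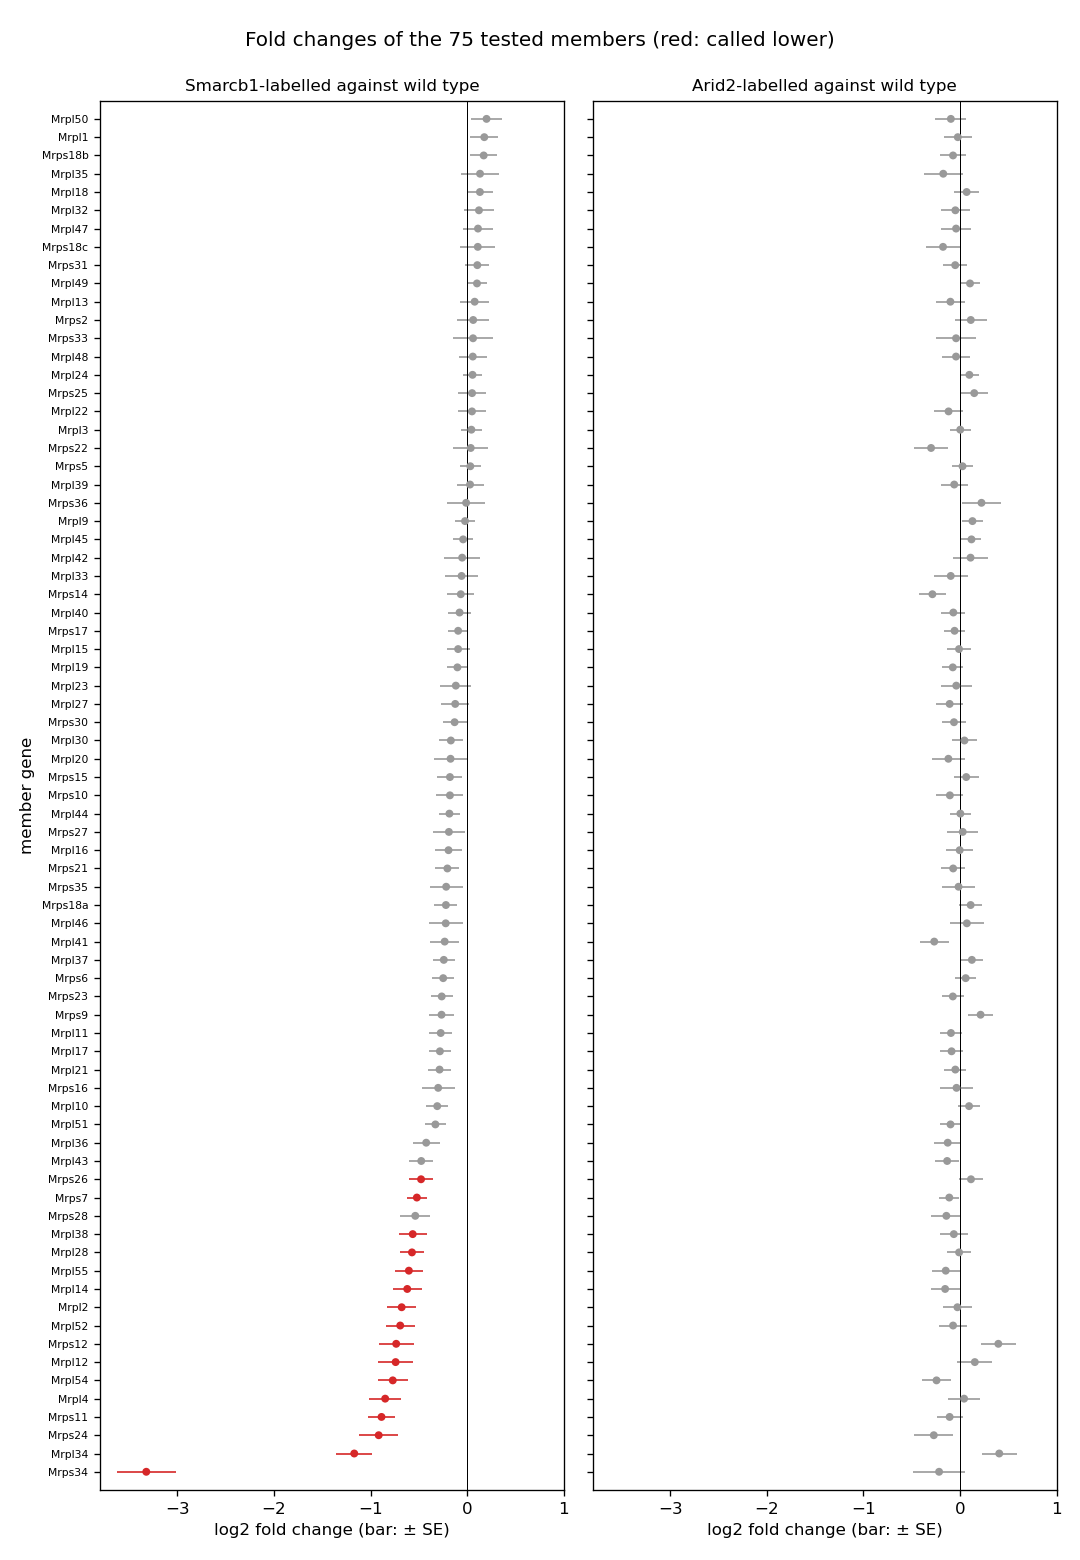
Fold change (log2, with the standard error as a bar) of each of the 75 tested members, ordered by the Smarcb1-labelled against wild-type comparison (left), with Arid2-labelled against wild type on the same rows (right). Red marks members called lower: 16 on the left, from -0.48 (Mrps26) to -3.32 (Mrps34), and 0 on the right.

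In the Smarcb1-labelled thyroids 16 of 75 members fell and 0 rose relative to wild type. The genes that fell came from every class of the ribosome, and the largest change was that of Mrps34. A share of 21.3% of members was called lower, against 5.74% of all tested genes (7.9% in either direction). No member was called higher, against 2.15%. At an unadjusted p under 0.05 there were 25 of 75 members, all lower, against 2499 of 17079 tested genes lower (28.4% in either direction). Both comparisons with wild type use the same 3 wild-type libraries. The median fold change of members was -0.18, 21 above and 54 below 0, against a median of 0.05 over all tested genes, of which 45.4% were below 0. The groups did not overlap for 30 members lower, against 16.7% of all tested genes, and for 1 higher (Mrps18b), against 17.1% (33.7% in either direction). Among the small-subunit genes 6 of 26 fell, and among the large-subunit genes 10 of 48. By origin, 4 of 16 bacterial-type and 2 of 10 mitochondria-specific small-subunit genes fell, as did 6 of 29 bacterial-type and 4 of 19 mitochondria-specific large-subunit genes.

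The Smarcb1-labelled libraries also stood apart in parathyroid and erythroid marker RNA and in the levels of GC-rich genes. The 3 parathyroid markers summed to 16992, 6092 and 9562 CPM in Smarcb1-labelled libraries, against 1236, 4320 and 8.16 CPM in wild type and 1581, 1484 and 10.6 CPM in Arid2-labelled libraries. The 3 erythroid markers summed to 146, 184 and 94.2 CPM in Smarcb1-labelled libraries and to 250.3 to 1394 CPM in the other 6. The 4 macrophage markers summed to 79.5, 124 and 61.1 CPM in Smarcb1-labelled libraries, 125 to 138 CPM in wild type and 116 to 124 CPM in Arid2-labelled libraries. The part of erythroid and macrophage RNA in the result was not tested. With the parathyroid level as a covariate 1 member was called lower, Mrps34, and the median fold change of members was -0.0404. The 16 members called without it had -0.41 (Mrpl38) to -3.21 (Mrps34) with it. Among them Mrps11 had -0.81 (adjusted p = 0.0641), Mrpl34 -0.93 (adjusted p = 0.0539) and Mrpl12 -0.43 (adjusted p = 0.185, edgeR). Parathyroid markers were highest in the Smarcb1-labelled libraries, so that fit cannot cleanly separate them from the group. Of the members 2 were called, Mrps34 and Mrps11, with a median of -0.14, once the GC trend of the libraries was taken out. Leaving out libraries one at a time gave 3 to 17 calls, with 3 without wild-type replicate 2, wild-type replicate 3 or Smarcb1-labelled replicate 3, 4 without wild-type replicate 1, 5 without Arid2-labelled replicate 2 and 7 without Smarcb1-labelled replicate 1. Mrps34, Mrpl34 and Mrps11 stayed called in each of these 9 fits. Without wild-type replicate 3 and Arid2-labelled replicate 3 together, 3 were called. These libraries were highest in brown fat markers and lowest in parathyroid markers, and were chosen after the data were seen.

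Mrps34 encodes a mitochondria-specific protein of the small subunit that is needed for small-subunit stability. It was at 4.34, 5.83 and 5.81 CPM in wild type, at 4.127, 4.632 and 4.996 CPM in Arid2-labelled and at 0.382, 0.769 and 0.433 CPM in Smarcb1-labelled libraries. The underlying reads numbered 143, 205 and 196, then 375, 296 and 311, then 15, 34 and 16. The Smarcb1-labelled libraries were far below all 6 others, which overlapped each other. Mrps34 fell by 3.32 ± 0.30 on the log2 scale against wild type (adjusted p = 0.00133, edgeR's quasi-likelihood test) and fell by 3.10 ± 0.30 against Arid2-labelled (adjusted p = 0.00198). It was called under all 25 alternatives in both comparisons. With the GC trend removed the fold change was -2.66 (SE 0.22, adjusted p = 0.00185) against wild type.

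The Mrps34 locus is crowded. On the mouse annotation its exons share 63.4% of their bases with exons of Mapk8ip3 on the opposite strand and 37.0% with Nme3 on the same strand, so its count rests on the part that the authors' counting could assign to it and is uncertain. Nme3 had 0 reads in every library. Mapk8ip3, a scaffold for kinase signalling and axonal transport, had a fold change of -0.10 ± 0.12 against wild type (adjusted p = 0.620) and -0.42 ± 0.12 against Arid2-labelled libraries (adjusted p = 0.0491, edgeR). Eme2, whose start lies 29 bases from that of Mrps34 in the opposite orientation and which encodes part of a DNA-cutting nuclease, had -0.07 ± 0.15 against wild type (adjusted p = 0.801). Of the other neighbours within 30000 bases, Igfals had -1.38 ± 0.37 (adjusted p = 0.0535), Spsb3 -0.65 ± 0.23 (adjusted p = 0.113) and Nubp2 -0.31 ± 0.13 (adjusted p = 0.171, edgeR), so none of the 5 tested was called against wild type.

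Upstream sequences are shown for 4 of the members lower in both comparisons with the Smarcb1-labelled libraries, those with the smallest p among members with an entry: the 250 bases before the transcription start, 5′ to 3′ on the gene's strand, from RefSeq on GRCm38.p6. They are Mrpl34 at chr8:71464676-71464925 (plus strand), Mrps11 at chr7:78782881-78783130 (plus), Mrps12 at chr7:28741822-28742071 (minus) and Mrps7 at chr11:115603890-115604139 (plus). Capitals mark motif letters, searched on either strand. The ETS family motif was searched as CCGGAAG and that of YY1 as AAGATGGC. The NRF1 core was searched as GCATGCG, and the box bound by NF-Y as CCAAT. The GC box was searched as GGGCGG, and the TATA box as TATAAA. Adjacent GC boxes touch in Mrps7.
Mrpl34: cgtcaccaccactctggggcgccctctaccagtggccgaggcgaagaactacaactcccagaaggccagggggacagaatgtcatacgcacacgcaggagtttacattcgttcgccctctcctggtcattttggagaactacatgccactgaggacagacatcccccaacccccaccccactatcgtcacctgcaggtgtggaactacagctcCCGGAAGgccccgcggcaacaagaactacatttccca
Mrps11: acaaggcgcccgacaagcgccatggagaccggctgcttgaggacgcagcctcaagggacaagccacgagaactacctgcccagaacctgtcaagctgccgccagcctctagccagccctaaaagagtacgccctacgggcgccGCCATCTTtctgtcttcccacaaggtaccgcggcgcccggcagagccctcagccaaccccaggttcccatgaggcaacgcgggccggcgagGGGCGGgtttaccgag
Mrps12: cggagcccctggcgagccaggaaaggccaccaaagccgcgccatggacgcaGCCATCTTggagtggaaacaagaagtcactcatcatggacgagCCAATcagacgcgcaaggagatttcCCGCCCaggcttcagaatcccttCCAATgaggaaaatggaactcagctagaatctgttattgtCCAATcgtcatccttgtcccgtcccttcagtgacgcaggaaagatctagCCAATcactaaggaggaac
Mrps7: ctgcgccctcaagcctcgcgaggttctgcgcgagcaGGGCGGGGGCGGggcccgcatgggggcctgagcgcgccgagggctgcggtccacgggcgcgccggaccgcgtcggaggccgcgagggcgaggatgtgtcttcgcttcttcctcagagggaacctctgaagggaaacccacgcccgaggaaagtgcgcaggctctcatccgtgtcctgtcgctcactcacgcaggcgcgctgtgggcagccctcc
No motif searched was in all 4 of these stretches. Mrpl34 held the ETS letters, Mrps11 a YY1 and a GC-box match, Mrps12 4 CCAAT boxes with a GC box and a YY1 match, and Mrps7 a pair of adjoining GC boxes.

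Over windows of 300 bases (250 before to 50 after the start, both strands), 66 members had a promoter in the table and were set beside 12290 tested genes. The ETS letters were in 33.3% of member windows and 16% of all, and the YY1 letters were in 18.2% and 4.15%. The NRF1 letters were in 12.1% and 5.92%, CCAAT in 39.4% and 37.8%, the GC box in 50% and 60.7%, and TATAAA in 6.06% and 7.85%. ETS factors such as GABP, YY1 and NRF1 are known regulators of nuclear genes for mitochondrial proteins. Among the 12 members with a window that fell against wild type, 4 held the ETS letters, 4 the YY1 letters, 0 the NRF1 letters, 4 CCAAT, 8 the GC box and 1 TATAAA. The median GC content of the windows was 61.7% in those 12, 57.7% in the other 54 members and 60.3% over all tested genes. A match is a description of letters and not a bound site.

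Other small-subunit genes that fell carry out decoding and shape the subunit's head and platform. Mrps11, a bacterial-type platform protein, was at 13.95, 14.8 and 15.2 CPM in wild type, 13.3, 12.8 and 14.7 CPM in Arid2-labelled and 6.92, 8.40 and 8.47 CPM in Smarcb1-labelled libraries. All 3 Smarcb1-labelled libraries were below the other 6. Mrps11 fell by 0.89 ± 0.14 against wild type (adjusted p = 0.00950, edgeR) and fell by 0.78 ± 0.14 against Arid2-labelled (adjusted p = 0.0112). It shares 173 exon bases with Mrpl46 on the opposite strand, a large-subunit gene with a fold change of -0.22 ± 0.18 (adjusted p = 0.425).

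Mrps12 encodes the protein of the decoding centre. Its levels were 13.3, 14.6 and 19.0 CPM in wild type, 17.5, 20.7 and 23.5 CPM in Arid2-labelled and 9.36, 10.6 and 8.17 CPM in Smarcb1-labelled libraries. The Smarcb1-labelled group lay below both others. Mrps12 fell by 0.73 ± 0.18 against wild type (adjusted p = 0.0427) and fell by 1.13 ± 0.18 against Arid2-labelled libraries (adjusted p = 0.00919, edgeR). The call against Arid2-labelled libraries was kept in all 9 fits that left out a library. With the GC trend removed the fold changes were -0.19 against wild type (adjusted p = 0.613) and -0.58 against Arid2-labelled libraries (adjusted p = 0.0885).

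Mrps24, a head protein by the mRNA entry, was at 32.8, 51.2 and 50.7 CPM in wild type, 36.2, 33.8 and 41.5 CPM in Arid2-labelled and 28.6, 18.8 and 23.98 CPM in Smarcb1-labelled libraries. It fell by 0.92 ± 0.20 against wild type (adjusted p = 0.0309), and against Arid2-labelled libraries it had -0.64 ± 0.20 (adjusted p = 0.0588, edgeR). It shares exon bases on the same strand with Urgcp, so its count is uncertain. Mrps7, a head protein, was at 52.6, 55.6 and 55.9 CPM in wild type, 44.9, 49.6 and 57.5 CPM in Arid2-labelled and 36.8, 39.6 and 37.9 CPM in Smarcb1-labelled libraries, and it fell by 0.52 ± 0.11 against wild type (adjusted p = 0.0231, edgeR). Its exons overlap those of Gga3 and Mif4gd on the opposite strand. The fold changes against wild type were -0.24 for Mrps7 and -0.63 for Mrps24 with the GC trend removed, neither called.

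Mrps26, mitochondria-specific, had the lowest GC content of the 16 members that fell against wild type, at 49.2%. It was at 18.8, 20.9 and 19.4 CPM in wild type, 20.3, 20.5 and 23.1 CPM in Arid2-labelled and 12.6, 15.98 and 13.9 CPM in Smarcb1-labelled libraries. Mrps26 fell by 0.48 ± 0.12 against wild type (adjusted p = 0.0494) and fell by 0.59 ± 0.12 against Arid2-labelled libraries (adjusted p = 0.0190, edgeR). Mrps9, a bacterial-type protein whose tail reaches toward the transfer RNA site, was called against Arid2-labelled libraries and not against wild type. Its levels were 21.4, 19.9 and 23.8 CPM in wild type, 25.02, 21.7 and 28.7 CPM in Arid2-labelled and 17.8, 18.3 and 18.1 CPM in Smarcb1-labelled libraries. The fold change of Mrps9 was -0.48 ± 0.13 against Arid2-labelled libraries (adjusted p = 0.0358, edgeR) and -0.27 ± 0.13 against wild type (adjusted p = 0.200).

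Among the large-subunit genes Mrpl34, a short bacterial-type protein, had the largest change. It was at 14.2, 17.3 and 20.3 CPM in wild type, 20.7, 20.3 and 27.5 CPM in Arid2-labelled and 6.67, 8.51 and 7.82 CPM in Smarcb1-labelled libraries. The Smarcb1-labelled libraries lay below the other 6. Mrpl34 fell by 1.17 ± 0.18 against wild type (adjusted p = 0.0106) and fell by 1.57 ± 0.19 against Arid2-labelled libraries (adjusted p = 0.00374, edgeR). The fold change against wild type was -0.68 with the GC trend removed (adjusted p = 0.0616).

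Mrpl4 lines the exit tunnel for the new chain. It was at 45.2, 45.8 and 50.8 CPM in wild type, 42.5, 47.0 and 56.6 CPM in Arid2-labelled and 20.9, 32.2 and 25.7 CPM in Smarcb1-labelled libraries. Mrpl4 fell by 0.85 ± 0.17 against wild type (adjusted p = 0.0215) and fell by 0.89 ± 0.17 against Arid2-labelled libraries (adjusted p = 0.0140, edgeR). Mrpl12, the stalk protein that recruits translation factors, was at 16.6, 16.9 and 22.4 CPM, then 17.8, 18.5 and 25.8 CPM, then 10.3, 12.2 and 10.9 CPM in the same group order. Mrpl12 fell by 0.74 ± 0.18 (adjusted p = 0.0429) and fell by 0.89 ± 0.18 (adjusted p = 0.0177, edgeR).

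Mrpl54, a mitochondria-specific protein, was at 27.6, 30.1 and 28.2 CPM in wild type, 23.2, 21.7 and 27.6 CPM in Arid2-labelled and 18.2, 18.9 and 13.2 CPM in Smarcb1-labelled libraries. It fell by 0.77 ± 0.15 against wild type (adjusted p = 0.0218, edgeR). The other 6 large-subunit genes that fell against wild type did so by 0.56 to 0.69: Mrpl52, Mrpl2 (next to the peptidyl transferase centre), Mrpl14 (at the subunit interface), Mrpl55, Mrpl28 and Mrpl38 (in the central protuberance). Their adjusted p-values ran from 0.0279 for Mrpl52 to 0.0484 for Mrpl38. With the GC trend removed none of these was called, and the fold changes against wild type were -0.0564 for Mrpl54, -0.0234 for Mrpl14, -0.0817 for Mrpl28, 0.0372 for Mrpl38, -0.26 for Mrpl2, -0.30 for Mrpl52 and -0.48 for Mrpl55. Those of Mrpl4 and Mrpl12 were -0.21 and -0.42. Mrpl10, at the base of the stalk, was called lower against Arid2-labelled libraries (-0.40 ± 0.12, adjusted p = 0.0446) and had -0.31 ± 0.12 against wild type (adjusted p = 0.120).

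**Figure D3:**
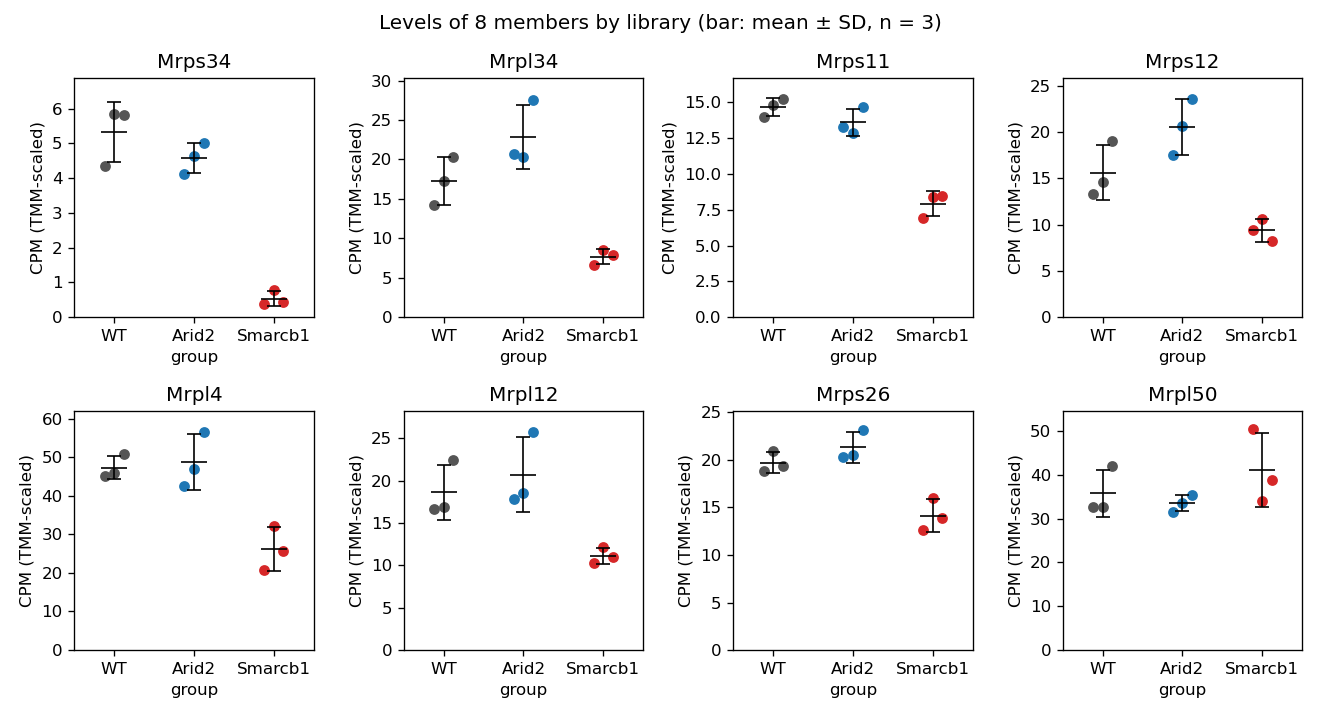
TMM-scaled CPM of 8 members in the 9 libraries (points), with the mean and SD of each group (n = 3). For 7 of them (Mrps34, Mrpl34, Mrps11, Mrps12, Mrpl4, Mrpl12 and Mrps26) the 3 Smarcb1-labelled libraries lie below the other 6. For Mrpl50 the groups overlap.

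No member rose. The largest positive fold changes against wild type were those of Mrpl50 (0.20 ± 0.16, adjusted p = 0.432), Mrpl1 of the stalk that guides the leaving transfer RNA (0.18, adjusted p = 0.450), Mrps18b (0.17, adjusted p = 0.435) and Mrpl35 (0.13, adjusted p = 0.693). Mrpl50 was at 32.7, 32.6 and 41.9 CPM in wild type, 31.6, 33.6 and 35.3 CPM in Arid2-labelled and 50.3, 33.99 and 38.9 CPM in Smarcb1-labelled libraries. Its groups overlapped, and the highest value was in Smarcb1-labelled replicate 1. Against Arid2-labelled libraries the largest were those of Mrps22 (0.34, adjusted p = 0.208), Mrpl35 (0.31, adjusted p = 0.298), Mrpl50 (0.30, adjusted p = 0.214) and Mrps18c (0.29, adjusted p = 0.281), all by edgeR.

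Relative to the Arid2-labelled libraries, 15 of 75 members were lower and 0 higher in the Smarcb1-labelled libraries. That share, 20%, compares with 9.32% of all tested genes called lower, 6.95% called higher and 16.3% called in either direction. At an unadjusted p under 0.05 there were 23 of 75 members, all lower, against 3099 of 17079 tested genes lower (35.8% in either direction). The groups did not overlap for 26 members lower and 2 higher, against 20.5% and 18.3% of all tested genes (38.8% together). The median fold change of members was -0.0251 with the parathyroid level as a covariate and -0.14 once the GC trend was taken out. Without either it was -0.18 against a median of 0.00 over all tested genes, 20 members above and 55 below 0, while 49.7% of all tested genes were below 0. Both comparisons use the same Smarcb1-labelled libraries, so their agreement is not independent. Between them 18 members were called: 13 in both, Mrpl14, Mrpl55 and Mrps24 against wild type alone, and Mrpl10 and Mrps9 against Arid2-labelled libraries alone. With the GC trend removed 6 were called (Mrps34, Mrpl34, Mrps26, Mrps11, Mrps9 and Mrpl51), with the parathyroid covariate 2 (Mrps34 and Mrpl34), and without Arid2-labelled replicate 3, 3. The 15 members called without the parathyroid covariate had -0.27 (Mrpl10) to -2.98 (Mrps34) with it.

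The members that fell were mostly those with GC-rich transcripts, and the Smarcb1-labelled libraries read low across GC-rich genes in general. Of 17 members above 55% GC, 14 fell against wild type, with a median of -0.69. Of 47 members at 45% to 55% GC, 2 fell (Mrps26 and Mrpl55), with a median of -0.12. Of 11 members below 45% GC, 0 fell, with a median of 0.10. Over all tested genes the median was -0.39 above 55% GC (18.6% called lower, 4101 genes), 0.07 between (2.15%, 8872 genes) and 0.31 below 45% GC (0.357%, 3643 genes). The 3 members above 55% GC that did not pass were Mrpl23, Mrpl37 and Mrps18a, at -0.12, -0.24 and -0.22, and at 0.44, 0.0250 and 0.0896 with the GC trend removed.

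Across the 75 members, fold change and GC content had Pearson's r of -0.633 and Spearman's rho of -0.714. Across 16616 tested genes they were -0.445 and -0.573, and genes share libraries and are not replicates. Against wild type in the Arid2-labelled libraries, the members' r was 0.122 and rho 0.0314. With each library's GC trend removed, the medians of the 3 bands were -0.21, -0.14 and -0.13 from the GC-rich end, and 2, 0 and 0 members were called. Which part of the lower values came from base composition was not tested.

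**Figure D4:**
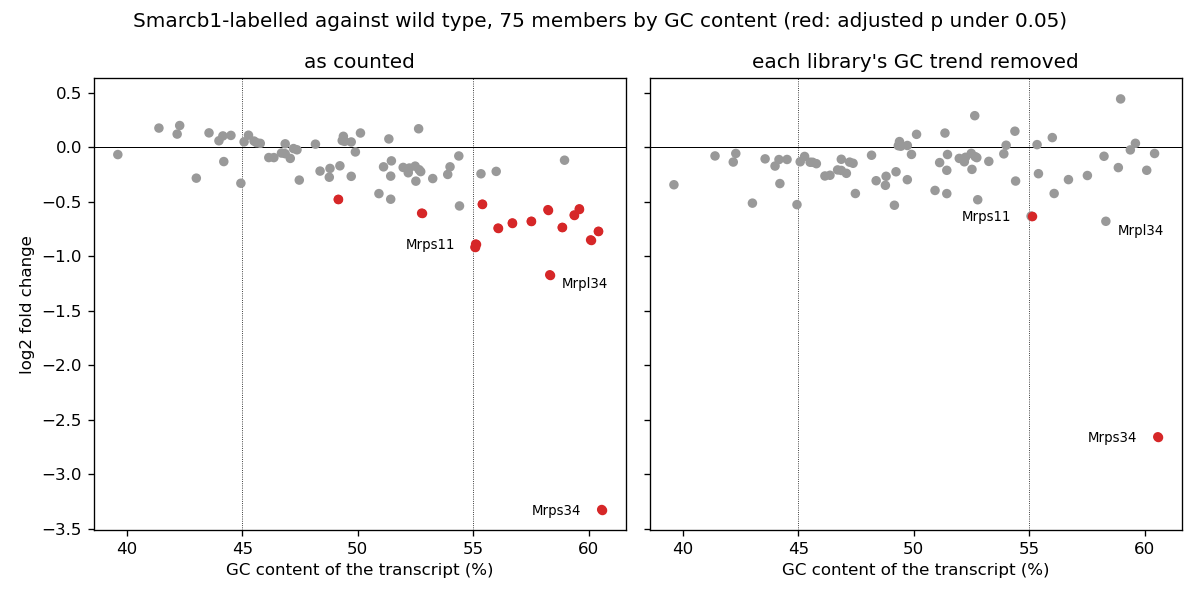
Fold change (log2) of 75 members in Smarcb1-labelled against wild-type libraries by GC content of the transcript, as counted (left) and with each library's GC trend removed (right). Red marks an adjusted p under 0.05: 16 members on the left and 2 on the right, Mrps34 (-2.66) and Mrps11 (-0.63). Dotted lines stand at 45% and 55% GC.

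Some members share their start region with another gene read in the opposite direction, and pairs differed in which genes passed the test. On the annotation 22 members had such a partner within 1000 bases, of which 5 members fell against wild type, or 22.7%, beside 21.3% of all members. Pairs overlapping by more than 200 bases were left out. Mrps11 and Mrpl46, read in opposite directions with overlapping exons, are not among the 22. Mrpl54 and Apba3, with starts 26 bases apart, both fell, Apba3 by 1.18 ± 0.22 (adjusted p = 0.0177, edgeR). So did Mrpl2 and Klc4, an axonal transport protein, 207 bases apart, Klc4 by 0.52 ± 0.11 (adjusted p = 0.0274). Mrps12 fell beside Sars2, the mitochondrial seryl-tRNA synthetase, which had -0.91 ± 0.25 (adjusted p = 0.0538). Mrps34 and Mrps7 fell beside partners that were not called. Eme2, beside Mrps34, had -0.07 ± 0.15 (adjusted p = 0.801), and Gga3, beside Mrps7, had 0.15 ± 0.12 (adjusted p = 0.445, edgeR). Of the 22 partners 4 were called lower and 1 higher, against 5.74% and 2.15% of all tested genes. With the GC trend removed, Mrpl54 (-0.0564), Mrpl2 (-0.26) and Sars2 (-0.30) were not called. Values with that trend removed are not given for the other partners. Fau, a cytoplasmic ribosomal protein gene 59 bases from Mrpl49, fell by 0.95 ± 0.12 (adjusted p = 0.00530), while Mrpl49 had 0.10 ± 0.10 (adjusted p = 0.539); the difference within the pair was not tested. Ighmbp2, a helicase gene beside Mrpl21, fell by 0.66 ± 0.16 (adjusted p = 0.0373), and Zfp661, beside Mrps5, was the 1 partner that rose (0.59 ± 0.14, adjusted p = 0.0418, edgeR). Mrpl21 (-0.29, adjusted p = 0.144) and Mrps5 (0.03, adjusted p = 0.869) were not called.

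The wider machinery of mitochondrial translation was taken as lists of 7 to 24 genes. Each gene was tested singly, and no list was tested as a whole. The background against wild type was the same 7.9% called, 5.74% lower and 2.15% higher. Among mitochondrial ribosome proteins with other symbols, 2 of 7 fell against wild type: Mrp63, also called Mrpl57, and Aurkaip1. Mrp63 was at 33.9, 36.9 and 34.6 CPM in wild type, 27.8, 28.5 and 31.6 CPM in Arid2-labelled and 18.9, 20.5 and 16.9 CPM in Smarcb1-labelled libraries. Mrp63 fell by 0.91 ± 0.11 (adjusted p = 0.00371), and with the GC trend removed its fold change was -1.14 (adjusted p = 0.0145, edgeR). The GC content of its annotated transcript is 42.3%, and the part of base composition or cell mixture in its change was not tested. Aurkaip1 fell by 0.58 ± 0.14 (adjusted p = 0.0411).

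Among assembly and ribosomal RNA modification factors, 2 of 24 fell, or 8.33%, against 5.74% of all tested genes. They were Rbfa, which matures the small subunit (-0.65 ± 0.15, adjusted p = 0.0350), and Rpusd3, a pseudouridine synthase (-0.92 ± 0.21, adjusted p = 0.0361, edgeR). Among translation factors, 1 of 14 rose (7.14%, against 2.15% of all tested genes), the elongation factor Guf1 (0.50 ± 0.12, adjusted p = 0.0420), and 0 fell. Of 17 aminoacyl-tRNA synthetases 1 fell (5.88%), Cars2 (-0.59 ± 0.12, adjusted p = 0.0242). Of 8 transcription and replication genes 1 fell (12.5%), Polrmt, the mitochondrial RNA polymerase (-0.91 ± 0.18, adjusted p = 0.0217). So did 1 of 10 nuclear regulators (10%), the receptor Esrra (-1.15 ± 0.19, adjusted p = 0.0134, edgeR). Of these, Mrp63 alone remained called with the GC trend removed.

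Against Arid2-labelled libraries the same lists gave 3 of 7 lower, 4 of 24 lower, 0 of 14, 3 of 17 lower and 1 higher, 1 of 8 lower and 1 of 10 lower, beside 9.32% lower and 6.95% higher over all tested genes. Ict1, a ribosome-rescue factor, had -0.41 (adjusted p = 0.0338), Gadd45gip1 -0.78 (adjusted p = 0.0333), the GTPase Gtpbp5 -0.45 (adjusted p = 0.0294) and Mpv17l2 -0.77 (adjusted p = 0.0214). Aars2 (-0.73, adjusted p = 0.0447), Vars2 (-0.74, adjusted p = 0.0436) and Cars2 were lower and Lars2 higher (1.61, adjusted p = 0.0319, edgeR). Of these lists, Mrp63 and Ict1 alone remained called in this comparison with the GC trend removed. Mpv17l2 was then at -0.0721 (adjusted p = 0.687), Gtpbp5 at -0.15 (adjusted p = 0.384) and Aars2 at -0.15 (adjusted p = 0.575, edgeR). Lars2 in the Arid2-labelled libraries had -1.75 against wild type (adjusted p = 0.0992). In the Arid2-labelled against wild-type comparison 0 genes of these lists were called. The genes with the smallest p in each were Mrp63 (-0.26), Rpusd4 (0.38), Mrrf (0.31), Lars2, Polg2 (0.25), Ppargc1b (0.52) and mt-Nd6 (0.24).

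The messenger RNAs that the mitochondrial ribosome translates were not called. Of 13 mitochondria-encoded messenger RNAs, 7 were tested and 0 called in any comparison. Their fold changes against wild type ran from 0.04 to 0.32 in the Smarcb1-labelled libraries, and from -0.23 to 0.06, with 5 of the 7 below 0, with the GC trend removed. In Arid2-labelled against wild type they ran from 0.04 to 0.25, and from 0.26 to 0.54 with that trend removed. In Smarcb1-labelled against Arid2-labelled they ran from -0.11 to 0.15, and from -0.65 to -0.25, all 7 below 0, with it removed. mt-Co1, a catalytic subunit of cytochrome c oxidase, was at 13562, 11661 and 16275 CPM in wild type and 18211, 15976 and 15956 CPM in Smarcb1-labelled libraries, with a fold change of 0.27 ± 0.19 (adjusted p = 0.370, edgeR). The other 6 were at 0.129 CPM or less in every library and were not tested. Such counts do not show that these RNAs were absent, since how the deposited counts treated these genes was not tested.

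Other large protein complexes had shares called lower near those of the mitochondrial ribosome. Against wild type 16 of 81 oxidative phosphorylation subunits (19.8%, median -0.29) and 14 of 78 cytoplasmic ribosomal proteins (17.9%, median -0.10) fell in Smarcb1-labelled libraries, beside 21.3% of the mitochondrial ribosomal protein genes. Against Arid2-labelled libraries 21 of 81 (25.9%, median -0.39) and 15 of 78 (19.2%, median -0.11) were lower, beside 20%. No difference between the 3 groups of genes was tested.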

How the data were processed

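Total RNA of frozen thyroids was isolated with TRIzol and sequenced from TruSeq libraries, per the labels' protocols. The values are whole-number read counts per gene as deposited by the authors. Per the submitters' processing notes, the build was mm9 and the tools included HTSeq 0.6.1, STAR 2.4 and DESeq2, whose order is not given. Whether the counting used strand is not given in the sources used here, so overlapping genes are uncertain. Replicates were numbered in accession order.

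Counts were tested with edgeR 4.0.16 in R 4.3.3 (quasi-likelihood test after TMM normalization and the group-wise filterByExpr filter), all 9 libraries in 1 fit of 3 group means. The filter kept 17079 genes, and p-values were adjusted by Benjamini-Hochberg over these. CPM were computed from the counts with TMM. On counts simulated for Smarcb1-labelled against wild type, 42 of 100 true 2-fold and 75 of 100 true 4-fold differences were found, with 4 false calls over 16934 genes. For Arid2-labelled against wild type 33 and 72 of 100 were found, with 5 false calls. For Smarcb1-labelled against Arid2-labelled 41 and 80 were found, with 9 false calls. These counts were drawn independently around a common mean per gene, with changes planted in genes sampled from all those tested. They held no trend over GC content and no cell mixture. They therefore do not measure false calls in the real libraries or sensitivity for the members. Alternatives used limma 3.58.1, DESeq2 1.42.0, other scalings and filters, fewer libraries, covariates and trends over GC content or length. GC content and length came from 1 GENCODE M21 transcript a gene (97.3% of tested genes matched), and neighbours and overlaps from the same annotation.

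Named genes are the members called in any comparison, the 4 highest and 4 lowest fold changes of each, the 3 highest and 3 lowest levels per kilobase, and, of each pathway list, the called genes or else that with the smallest p. A few neighbours and members named for GC content were added after their values were seen, and Mrpl55 was moved to the mitochondria-specific class as a correction. The members, lists and tests were chosen with earlier results of these data known. PCR duplicates cannot be seen in the counts.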

Additional observations from a re-analysis of the deposited data

How the results depend on the processing

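No paired analysis was possible because the labels give no replicate numbers that link libraries of different groups. In Arid2-labelled against wild type, 0 members were called under each of the 25 alternatives. In Smarcb1-labelled against wild type, 16 members were called. That count was 8 with library totals only, 5 with only the 6 libraries compared, 2 at an adjusted p under 0.01, 2 with the GC trend removed, 9 with the length trend removed, 1 with the parathyroid covariate and 3 without the 2 libraries highest in brown fat markers. Leaving out a library gave 3 to 17. In Smarcb1-labelled against Arid2-labelled, 15 were called, and the count was 9, 7, 3 and 6 under the first 4 of these settings, 2 with the parathyroid covariate, 3 without the 2 libraries highest in brown fat markers, and 3 to 17 when a library was left out: 3 without Arid2-labelled replicate 3, 5 without Smarcb1-labelled replicate 3, and 7 without Arid2-labelled replicate 2 or Smarcb1-labelled replicate 1. The median fold change of members was -0.0404 against wild type and -0.0251 against Arid2-labelled with the parathyroid covariate. Every member called without this covariate stayed below 0 with it in both comparisons. The share of reads among those outside thyroglobulin was 0.292%, 0.282% and 0.246%.

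With the GC trend removed, 20 of 75 members changed sign against wild type and 22 of 75 against Arid2-labelled. Among the called members and those with the highest or lowest fold changes, these were Mrpl38 (0.0372), Mrpl35 (-0.11), Mrpl1 (-0.0787) and Mrpl50 (-0.0561) against wild type, and Mrpl38 (0.0860), Mrpl54 (0.15), Mrpl50 (-0.0475) and Mrpl35 (-0.00309) against Arid2-labelled. When a library was left out, Mrpl35 against wild type ran from -0.0714, without Smarcb1-labelled replicate 1, to 0.24. The cause was not tested. Fits with fewer libraries test less. The 3 libraries a group and unknown cell mixtures limit all comparisons, and members with few reads, Mrps34 above all, have wide errors.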
